A study of Mus musculus with 4 samples.

Results

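The BRG1 remodeller was studied here through the genes of its partners and relatives: 50 chromatin genes were listed by symbol, comprising the BAF subunits other than the ATPases, the CHD, ISWI and INO80 remodellers, the NuRD and histone deacetylase genes and the Polycomb PRC2 genes, and 49 were found in a table of 22552 genes. All 49 reached 1 FPKM (fragments scaled to transcript length and to library depth) in at least 1 library and were among the 13248 genes that did, so no matched member was lost to that minimum; the member closest to it, Hdac1, reached 4.22 FPKM in its highest library. Srcap was not matched by symbol and was not analysed here. The members comprised 17 BAF, PBAF and ncBAF subunits, 7 CHD remodellers, 6 ISWI, INO80 and other SNF2 remodellers, 8 NuRD subunits other than its ATPases, 6 histone deacetylases, and 5 genes of PRC2 and of its opposing demethylase.

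RNA had been sequenced from 4 cultures of primary mouse cortical neurons prepared from E16.5 embryos, with 1 library for each combination of genotype and treatment. The genotypes were wild type and a Brg1 conditional knockout (cKO) labelled BAF53bCre Brg1F/F, in which Cre follows BAF53b, the neuronal BAF subunit encoded by Actl6b, so that cells other than neurons would keep the floxed gene. The treatments were a basal level of KCl and 50 mM KCl for 6 h on day 6 in vitro, which depolarizes neurons. Cultures for depolarization had been given TTX (1 µM), which blocks sodium channels, and APV (100 µM), which blocks NMDA receptors, on day 5; whether the basal cultures had received them is not given in the sources used here. With 1 library per group, differences below have no replicate check and no test. A member is counted as higher or lower when its ratio passed 1.5-fold on the log2(FPKM + 1) scale, and 95% intervals cover counting error only, from an approximate depth of 21100000 and 21400000 fragments in wild type (basal and KCl) and of 22600000 and 23900000 with the cKO label, which gave between 117 (Hdac1) and 8854 (Chd3) fragments per member.

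These proteins move, evict or mark nucleosomes. BAF complexes are built on 1 of the ATPases BRG1 (Smarca4) and BRM (Smarca2), and swap paralogous subunits as progenitors become neurons; CHD, ISWI and INO80 family enzymes slide or exchange nucleosomes; NuRD joins a CHD ATPase to deacetylases; and PRC2 methylates histone H3 at lysine K27 to keep developmental genes silent. Depolarization of neurons by KCl opens calcium channels and starts a transcriptional programme of early regulators followed by later effector genes, on chromatin in which BAF complexes act.

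Smarca4, the targeted gene, was lower in both libraries labelled cKO. It stood at 34.0 FPKM in wild type basal, 28.5 in wild type KCl, 10.5 in cKO basal and 10.4 in cKO KCl. Smarca2, the other BAF ATPase, stood at 63.6 and 36.2 FPKM in wild type (basal and KCl) and at 62.4 and 38.4 in the cKO. Sex followed genotype: Xist, expressed from the inactive X, was at 83.3 and 78.1 FPKM in wild type, against 0.141 and 0.287 with the cKO label, and the Y-linked Eif2s3y was at 0.0518 and 0 against 32.9 and 39.0, so genotype and sex cannot be told apart. Neuron markers were abundant, at a summed 1920 to 2911 FPKM over the 7 of 8 listed genes that matched, although Tubb3 itself was at 1187 and 1175 FPKM in the basal libraries and at 278 and 284 after KCl. Other cells were present: summed microglial markers were 238 and 296 FPKM in wild type and 487 and 649 in the cKO (10 of 10 higher in the cKO in both conditions), vascular and fibroblast markers 22.7 and 39.5 against 71.0 and 155 (with Cldn5 at 0 in all libraries), oligodendrocyte markers 630 and 735 against 402 and 362, astrocyte markers 728 and 883 against 645 and 786, and cell cycle genes 82.7 and 112 against 130 and 172. Progenitor markers summed to 183 and 505 FPKM in wild type and 222 and 546 in the cKO, mostly through Vim (63.0 and 319 against 110 and 391); Sox2 was at 67.8 and 97.5 against 52.3 and 69.7, and 3 of the 6 retained markers had a genotype ratio above 0 in each condition. In such bulk cultures fewer cells of a type and less RNA per cell cannot be told apart, and the part of these other cells in the values below was not tested.

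The members were well expressed. Their median level was 18.9 FPKM in wild type basal, 21.6 in wild type KCl, 19.97 in cKO basal and 20.7 in cKO KCl, against 10.3, 9.90, 10.4 and 10.2 FPKM over all genes retained. Chd3, an ATPase of NuRD, had the highest level in both basal libraries and in wild type KCl (115 to 117 FPKM), and Hdac2 the highest in cKO KCl (121 FPKM). Hells, a SNF2-family ATPase required for DNA methylation of repeats, had the lowest level in both basal libraries (2.18 FPKM and, in the cKO, 2.45), and Hdac1 the lowest after KCl (3.33 and 4.22 FPKM).

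**Figure D1:**
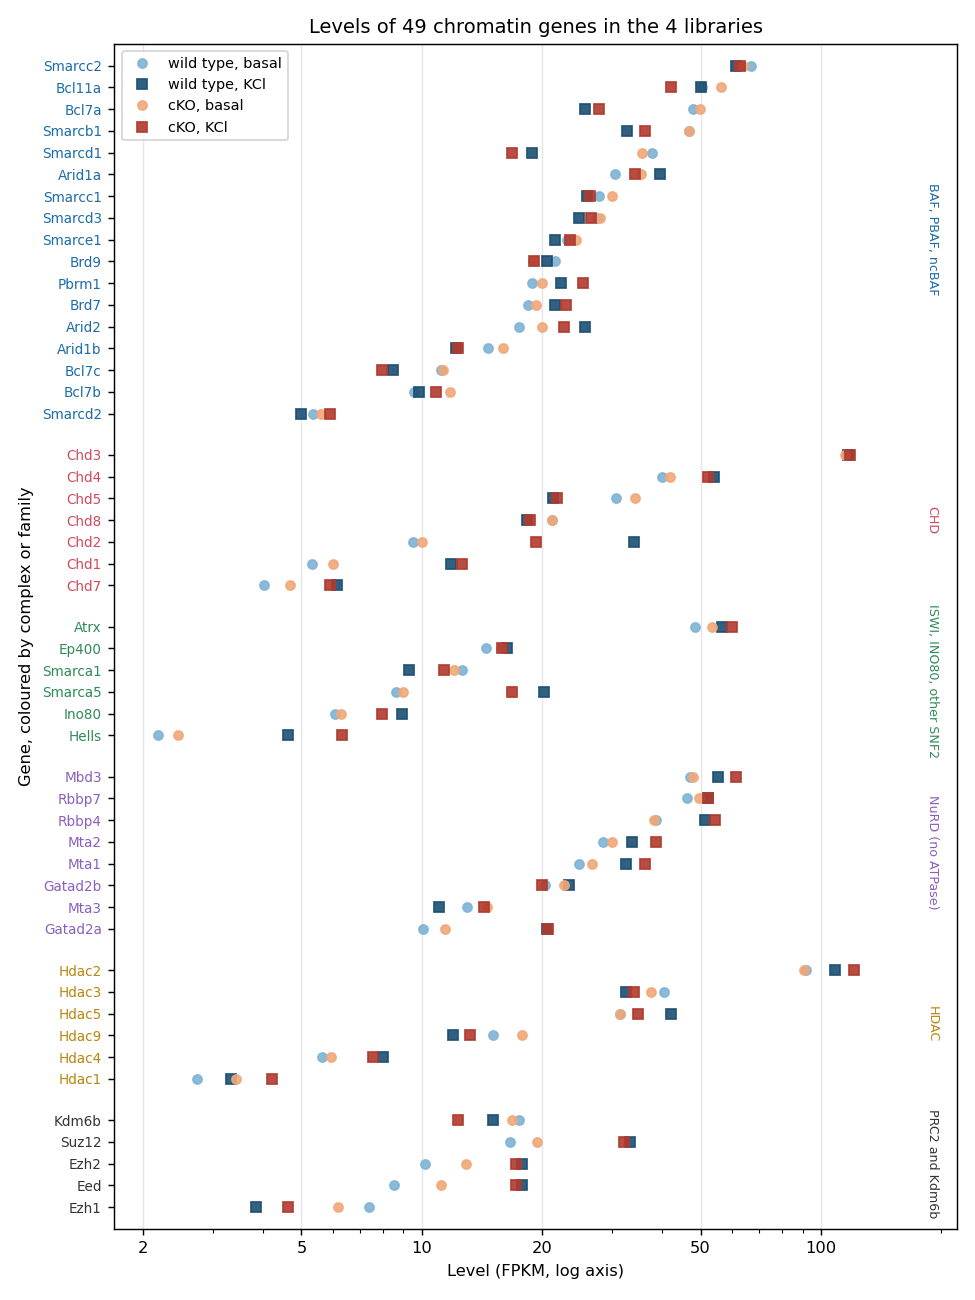
Level of each of the 49 members (FPKM, log axis) in the 4 libraries, 1 point per library, with genes coloured and grouped by complex or family. Levels run from 2.18 FPKM for Hells to 121 FPKM for Hdac2; the squares of the KCl libraries lie right of the circles for Chd1, Chd2, Smarca5, Hells, Gatad2a, Suz12, Eed and Ezh2, and left of them for Smarcd1, Bcl7a, Chd5 and Ezh1.

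The first question was how the members responded to depolarization in wild type neurons. After 6 h of KCl, 8 of 49 members (16.3%) were higher by 1.5-fold, namely Chd1, Chd2, Smarca5, Hells, Gatad2a, Ezh2, Suz12 and Eed, beside 12.7% of all genes retained. Smarcd1, Bcl7a and Ezh1, 3 of 49 members (6.12%), were lower by that size, beside 12.8% of all genes. At 2-fold, Chd1, Chd2 and Smarca5 were higher (3 members, 6.12%, beside 5.07% of all genes) and 0 members were lower (beside 3.31%). The higher share thus lay near the share of all genes and the lower share below it, on counts of few members. The members' median log2 ratio was 0.19, against -0.01 over all genes.

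The same counts in the cKO neurons were 6 of 49 higher (12.2%, beside 11.5% of all genes), Chd1, Chd2, Smarca5, Hells, Gatad2a and Suz12, and 3 of 49 lower (6.12%, beside 11.1%), Smarcd1, Bcl7a and Chd5. At 2-fold, Hells was higher (1 member, 2.04%, beside 4.41% of all genes) and Smarcd1 lower (1 member, 2.04%, beside 3.09%). The higher share was near the background. The median log2 ratio was 0.06 for the members and 0.01 for all genes. Eed lay just under the 1.5-fold size, with a log2 ratio of 0.58.

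These counts depend on what is held level between libraries. Scaling the libraries to 80 ribosomal protein genes moved the median of all genes by KCl to -0.31 (wild type) and -0.36 (cKO), and scaling to 25 presynaptic genes moved it to 0.23 and 0.31. Among all genes past 1.5-fold, the share that was higher was 49.8% in wild type as deposited, 19.0% with the ribosomal scaling and 77.1% with the presynaptic one, and in the cKO 50.8%, 14.1% and 82.9%. The members moved with these shifts. With the ribosomal scaling 6 were higher and 9 lower in wild type, beside 858 and 3652 of the 13248 genes. With the presynaptic one the counts were 17 and 2, beside 3058 and 906 genes. In the cKO they were 1 and 11 with the ribosomal scaling, beside 646 and 3951 genes. The presynaptic one gave 17 and 1 there, beside 3556 and 736 genes. The sign of the KCl ratio was the same under all 4 rescalings tried for 26 of 49 members in wild type and 19 of 49 in the cKO, among them every member counted above as higher or lower; where a sign was not kept, only values are given below.

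**Figure D2:**
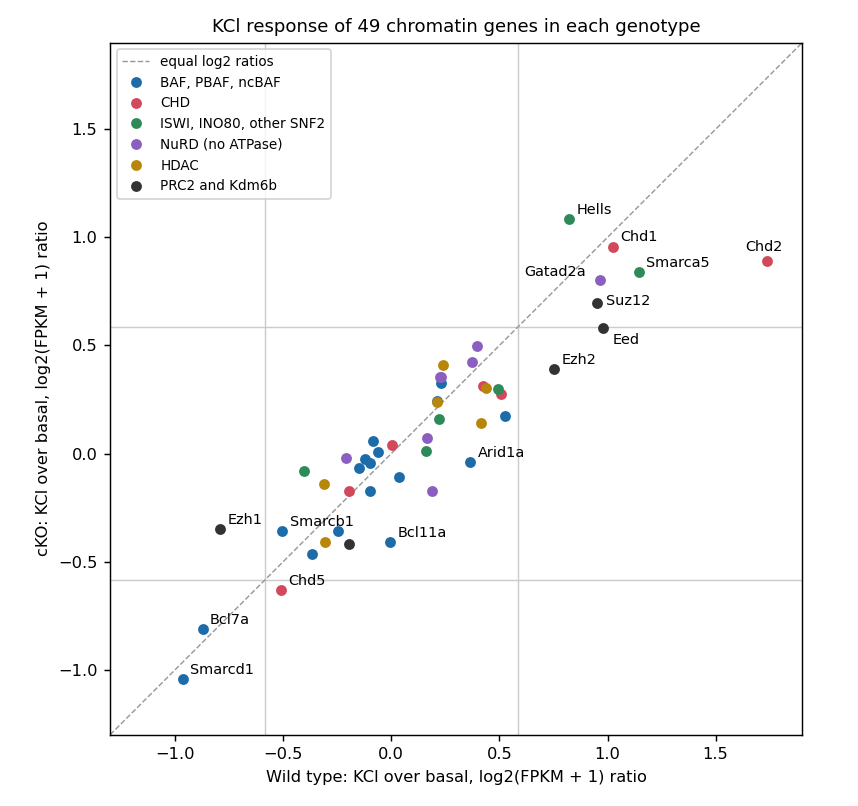
KCl response of each member in wild type (horizontal) and in the cKO (vertical), both as the log2(FPKM + 1) ratio of the KCl library over the basal library, coloured by complex or family; grey lines mark 1.5-fold and the dashed line equal ratios. Chd2 lies farthest right (1.74) and well under the dashed line (0.89 in the cKO), and Smarcd1 lies lowest in both (-0.96 and -1.04).

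Among BAF subunits, 0 of 17 were higher and 2 of 17 lower after KCl in each genotype. Of all genes, 12.7% were higher and 12.8% lower in wild type, and 11.5% and 11.1% in the cKO. The subunits' median log2 ratios were -0.10 (wild type) and -0.07 (cKO). Smarcd1, an accessory subunit that links BAF to transcription factors, was at 37.8 FPKM in wild type basal, 18.9 in wild type KCl, 35.7 in cKO basal and 16.8 in cKO KCl. Both KCl libraries were thus below both basal ones, by 2.0-fold in wild type (interval 1.73 to 2.32) and 2.12-fold in the cKO (1.84 to 2.46). Bcl7a, a small subunit that binds nucleosomes, was at 47.9, 25.7, 49.7 and 27.9 FPKM in the same order. Its level after KCl was 1.86-fold lower in wild type (1.77 to 1.95) and 1.78-fold lower in the cKO (1.71 to 1.86), where the presynaptic scaling gave a log2 ratio of -0.49, inside the 1.5-fold size. Their paralogs had smaller ratios: Smarcd3 was at 27.5, 24.7, 27.9 and 26.6 FPKM, Smarcd2 at 5.34, 4.99, 5.60 and 5.88, and Bcl7b at 9.55, 9.83, 11.8 and 10.9. Bcl7c was at 11.2, 8.46, 11.3 and 7.96 FPKM, with log2 ratios of -0.37 and -0.46.

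The core of the BAF complex varied less. Smarcc2, one of the paired scaffold subunits, was the most abundant BAF member at 67.0, 61.4, 63.9 and 62.8 FPKM, and its partner paralog Smarcc1 was at 27.9, 26.0, 30.0 and 26.5. Smarcb1, which contacts the nucleosome surface, was lower after KCl without reaching 1.5-fold, at 46.8, 32.8, 46.9 and 36.3 FPKM (1.43-fold, 1.33 to 1.54, and 1.29-fold, 1.20 to 1.38). Smarce1, an HMG-box subunit, was at 23.2, 21.6, 24.4 and 23.6 FPKM.

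The subunits that define BAF subtypes stayed inside the 1.5-fold size after KCl in both genotypes, as deposited. Arid1a, the main ARID subunit of canonical BAF, was at 30.5, 39.6, 35.4 and 34.3 FPKM, with log2 ratios after KCl of 0.37 (wild type) and -0.04 (cKO). Its alternative, Arid1b, was at 14.6, 12.2, 16.0 and 12.3 FPKM. Of the PBAF subunits, Arid2 was at 17.6, 25.7, 20.1 and 22.8 FPKM, with log2 ratios of 0.52 and 0.17. The 2 other PBAF subunits, Pbrm1 and Brd7, had ratios of 0.23 and 0.21 in wild type and 0.33 and 0.24 in the cKO. Brd9, which defines ncBAF, was between 19.0 and 21.6 FPKM in all libraries. Bcl11a, a zinc finger protein of BAF and of cortical projection neurons, was at 50.3, 50.1, 56.2 and 42.0 FPKM, so its cKO KCl library was the lowest.

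Among CHD remodellers, Chd1 and Chd2 were higher after KCl in both genotypes. Chd2, mutated in a childhood epilepsy, was at 9.50 FPKM in wild type basal, 34.0 in wild type KCl, 10.01 in cKO basal and 19.4 in cKO KCl. Both KCl libraries were above both basal ones, and the wild type KCl library stood well above the cKO KCl one: the ratio was 3.58-fold in wild type (2.98 to 4.32) and 1.94-fold in the cKO (1.61 to 2.34). Chd1, which binds the H3K4 methylation of active promoters, was at 5.31, 11.8, 6.00 and 12.6 FPKM. Its ratios were close in the 2 genotypes, at 2.23-fold (2.0 to 2.49) and 2.10-fold (1.9 to 2.32). With the ribosomal scaling the log2 ratios in the cKO were 0.56 for Chd1 and 0.48 for Chd2, inside the 1.5-fold size.

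The NuRD ATPases went different ways. Chd3 was at 117, 117, 115 and 119 FPKM. Chd4, the broadly expressed NuRD ATPase, was at 40.0, 54.0, 41.8 and 52.2 FPKM. Chd5, the neuron-enriched one, was at 30.8, 21.3, 34.3 and 21.8 FPKM. Chd5 was lower after KCl by 1.44-fold in wild type (1.39 to 1.5) and by 1.57-fold in the cKO (1.52 to 1.63), so that it passed 1.5-fold in the cKO alone, on values close to each other; this is not a test of a difference, and with the presynaptic scaling the log2 ratio in the cKO was -0.31. Chd7, mutated in CHARGE syndrome, was the least abundant at 4.02, 6.14, 4.69 and 5.89 FPKM, and Chd8, an autism risk gene, was at 21.2, 18.4, 21.3 and 18.7.

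Of the ISWI, INO80 and other SNF2 remodellers, Smarca5 and Hells were higher after KCl in both genotypes. These were 2 of 6 members in each, beside 12.7% of all genes in wild type and 11.5% in the cKO. Smarca5, the ISWI ATPase of dividing and progenitor cells, was at 8.62, 20.3, 8.97 and 16.8 FPKM. The ratio was 2.35-fold in wild type (2.19 to 2.53) and 1.88-fold in the cKO (1.75 to 2.01). Smarca1, the ISWI ATPase enriched in differentiated neurons, was at 12.6, 9.32, 12.1 and 11.4 FPKM. Hells was at 2.18, 4.63, 2.45 and 6.32 FPKM, which was 2.12-fold higher after KCl in wild type (1.74 to 2.59) and 2.57-fold in the cKO (2.17 to 3.07). Hells is also a gene of dividing cells, and the cell cycle genes listed above were highest in the same cKO KCl library. With the ribosomal scaling Smarca5 in the cKO (log2 ratio 0.43) and Hells in wild type (0.54) were inside the 1.5-fold size. Ino80, the ATPase of the INO80 complex, was at 6.07, 8.94, 6.26 and 7.94 FPKM. Ep400, of the TIP60 complex, and Atrx, which guards heterochromatin, had log2 ratios between 0.01 and 0.22 in the 2 genotypes.

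NuRD subunits other than the ATPases included 1 member of 8 that was higher in each genotype and 0 lower. The shares of all genes were 12.7% higher and 12.8% lower in wild type, and 11.5% and 11.1% in the cKO. Gatad2a, a bridge between the deacetylase and ATPase modules of NuRD, was at 10.1, 20.6, 11.5 and 20.7 FPKM. The KCl libraries were thus nearly equal, with ratios of 2.04-fold (1.87 to 2.24) and 1.81-fold (1.67 to 1.97); in the cKO its log2 ratio with the ribosomal scaling was 0.39, inside the 1.5-fold size. Gatad2b, its paralog, was at 20.4, 23.4, 22.7 and 20.01 FPKM. Rbbp4, a histone chaperone shared by NuRD and PRC2, was at 38.7, 51.2, 38.3 and 54.4 FPKM and its paralog Rbbp7 at 46.3, 52.0, 49.6 and 52.2. Mta1, a NuRD scaffold, was at 24.8, 32.5, 26.8 and 36.3 FPKM, Mta2 at 28.5, 33.6, 30.0 and 38.6, and Mta3 at 13.0, 11.1, 14.6 and 14.3. Mbd3, the subunit that distinguishes one form of NuRD, was the most abundant of this group in 3 of the 4 libraries, at 46.9, 55.2, 47.7 and 61.2 FPKM.

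None of the 6 histone deacetylases passed 1.5-fold after KCl in either genotype. Among all genes 12.7% were higher and 12.8% lower in wild type, and 11.5% and 11.1% in the cKO. Hdac2, the catalytic subunit that dominates over Hdac1 in neurons, was at 91.8, 108, 90.8 and 121 FPKM, and Hdac1 at 2.73, 3.33, 3.42 and 4.22. Hdac3, the deacetylase of the NCoR and SMRT corepressors, was at 40.5, 32.4, 37.6 and 34.1 FPKM. The class IIa enzymes, which leave the nucleus when calcium enters a neuron, had ratios on both sides of 0. Hdac5 was at 31.3, 42.1, 31.4 and 34.8 FPKM, Hdac4 at 5.64, 7.99, 5.94 and 7.56, and Hdac9 at 15.1, 12.02, 17.9 and 13.2.

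The PRC2 group had the highest median log2 ratio of the 6 groups in each genotype, 0.75 in wild type and 0.39 in the cKO. In wild type 3 of its 5 members were higher and 1 lower, beside 12.7% and 12.8% of all genes. In the cKO 1 was higher and 0 lower, beside 11.5% and 11.1%. Suz12, the PRC2 scaffold, was at 16.7, 33.2, 19.5 and 32.2 FPKM, with ratios of 1.99-fold (1.87 to 2.12) and 1.65-fold (1.56 to 1.75); with the ribosomal scaling its log2 ratio in the cKO was 0.28, inside the 1.5-fold size. Eed, which reads the mark PRC2 makes, was at 8.54, 17.8, 11.2 and 17.2 FPKM, with ratios of 2.09-fold (1.76 to 2.48) and 1.54-fold (1.33 to 1.80). Ezh2, the catalytic subunit of proliferating cells, was at 10.2, 17.8, 12.9 and 17.3 FPKM. For these 3 genes the KCl libraries were close to each other and the cKO basal library was above the wild type basal one. For Ezh2 the ratio was 1.75-fold in wild type (1.57 to 1.96) and 1.33-fold in the cKO (1.21 to 1.47), where its log2 ratio of 0.39 became -0.02 with the ribosomal scaling, and in wild type that scaling gave 0.42, inside the 1.5-fold size. Ezh1, the catalytic subunit of postmitotic cells, went the other way, at 7.39, 3.85, 6.18 and 4.63 FPKM. It was lower by 1.92-fold in wild type (1.68 to 2.19) and by 1.33-fold in the cKO (1.18 to 1.51), and with the presynaptic scaling its log2 ratio in wild type was -0.57, just inside the 1.5-fold size. Kdm6b, the demethylase that removes the PRC2 mark and is known as an activity-induced gene, was at 17.5, 15.1, 16.8 and 12.3 FPKM, so its values after 6 h of KCl were below the basal ones as deposited.

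Promoter windows from RefSeq (GRCm38.p6, from 250 bases before to 50 after the transcript start) matched 38 of the 49 members. The letters TTTCCCGC or TTTGGCGC, core forms of the site of E2F factors, which drive genes of dividing cells, were found on either strand in 6 of the 38 (15.8%), Arid1a, Brd7, Ezh2, Hells, Smarcd1 and Suz12, against 3.44% of the 9268 retained genes with a window and 2.39% of all 15124. Of these 6, Ezh2, Suz12 and Hells were higher after KCl in wild type, Smarcd1 was lower, and Arid1a and Brd7 passed 1.5-fold in neither direction, so the letters did not go with 1 direction. The windows of the 4 that passed 1.5-fold are shown, with the matching letters in capitals, so that the place of the match can be compared. Ezh2 (chr6:47594981-47595280, minus strand) has its match 3 bases after the start, and the matches of Suz12 (chr11:79992856-79993155, plus strand), Hells (chr19:38930740-38931039, plus strand) and Smarcd1 (chr15:99702037-99702336, plus strand) begin 219, 62 and 131 bases before it. Each is written from 5′ to 3′ on the strand of the gene.
Ezh2: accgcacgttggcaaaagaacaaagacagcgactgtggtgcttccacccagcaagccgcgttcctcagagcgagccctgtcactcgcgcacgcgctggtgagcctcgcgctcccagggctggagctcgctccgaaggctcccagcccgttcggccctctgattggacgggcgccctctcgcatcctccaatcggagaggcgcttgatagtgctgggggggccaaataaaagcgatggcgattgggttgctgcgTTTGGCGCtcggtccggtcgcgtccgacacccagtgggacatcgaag
Suz12: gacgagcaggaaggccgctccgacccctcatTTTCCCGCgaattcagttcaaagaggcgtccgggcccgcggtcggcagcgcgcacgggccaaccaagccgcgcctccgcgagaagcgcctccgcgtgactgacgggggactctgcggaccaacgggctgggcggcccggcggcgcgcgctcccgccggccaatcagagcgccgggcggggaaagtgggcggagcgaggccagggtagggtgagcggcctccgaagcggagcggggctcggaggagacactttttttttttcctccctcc
Hells: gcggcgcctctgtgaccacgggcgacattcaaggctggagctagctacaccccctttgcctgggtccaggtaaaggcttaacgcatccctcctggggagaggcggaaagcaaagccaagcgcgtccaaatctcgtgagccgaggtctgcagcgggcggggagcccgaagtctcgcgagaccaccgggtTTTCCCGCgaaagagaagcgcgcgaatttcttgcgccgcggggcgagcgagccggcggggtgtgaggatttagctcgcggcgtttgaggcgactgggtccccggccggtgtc
Smarcd1: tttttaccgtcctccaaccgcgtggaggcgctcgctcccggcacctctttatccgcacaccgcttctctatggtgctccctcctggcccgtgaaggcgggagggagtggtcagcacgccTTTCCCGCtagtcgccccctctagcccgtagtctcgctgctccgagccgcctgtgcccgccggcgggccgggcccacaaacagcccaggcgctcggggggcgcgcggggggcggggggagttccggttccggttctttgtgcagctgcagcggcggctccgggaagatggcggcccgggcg

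For sites of factors known to act in depolarized neurons, the letters TGACGTCA (CRE) were in 0 of the 38 members' windows (3.75% of retained genes), TGANTCA (AP-1) in 3, Gatad2a, Hdac9 and Smarcb1 (7.89%, beside 5.84%), and GCGTGGGCG (EGR) in 1, Ino80 (2.63%, beside 1.47%). GCGCATGC (NRF1) was in 3, Smarca5, Smarcb1 and Smarcc1 (7.89%, beside 6.00%), and CCGGAAG (ETS) in 5, Brd9, Chd8, Gatad2a, Mta2 and Smarcc1 (13.2%, beside 18.8%). All were searched on both strands, and a match describes the letters of these windows only.

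Ratios of related genes within a library are free of the scaling between libraries. The ratio of Ezh2 to Ezh1 was 1.38 in wild type basal, 4.63 in wild type KCl, 2.09 in cKO basal and 3.72 in cKO KCl. After KCl this ratio was 3.37-fold higher in wild type (2.84 to 3.99) and 1.78-fold higher in the cKO (1.52 to 2.08), and Ezh2 made up 57.9% and 82.2% of the summed pair in wild type and 67.7% and 78.8% in the cKO. The ratio of Smarca5 to Smarca1 was 0.683, 2.18, 0.744 and 1.48 in the same order. With KCl the predominant ISWI ATPase transcript thus passed from Smarca1 to Smarca5 in both genotypes, with a change of 3.19-fold (2.82 to 3.62) in wild type and 1.99-fold (1.77 to 2.24) in the cKO. For both pairs the intervals of the 2 genotypes' changes did not overlap. Those intervals cover counting error only, and a difference between genotypes was not tested. Of the 12 pairs of related genes compared here, Arid1a over Arid1b was the only other one whose intervals did not overlap. Gene pairs outside these 12 were not compared, so a share over gene pairs in general is not given.

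Pairs in BAF and NuRD also had ratios that differed between basal and KCl libraries. Smarcd1 over Smarcd3 was 1.37, 0.766, 1.28 and 0.632, so that Smarcd3 was the more abundant in both KCl libraries; of the summed Smarcd transcripts, Smarcd1 made up 53.5% and 38.9% in wild type and 51.6% and 34.1% in the cKO. Bcl7a over Bcl7b was 5.01, 2.62, 4.22 and 2.57. Chd5 over Chd4 was 0.770, 0.395, 0.821 and 0.418, which was 1.95-fold lower after KCl in wild type (1.85 to 2.06) and 1.96-fold lower in the cKO (1.87 to 2.06). Gatad2a over Gatad2b was 0.495, 0.882, 0.505 and 1.04. For these 4 pairs the intervals of the change overlapped between genotypes.

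In 4 further pairs the change after KCl was above 1 in both genotypes. Arid1a over Arid1b was 2.08, 3.25, 2.21 and 2.79, a change of 1.56-fold in wild type (1.46 to 1.67) and 1.27-fold in the cKO (1.19 to 1.35). These intervals, of counting error only, did not overlap. Hdac5 over Hdac9 was 2.08, 3.50, 1.76 and 2.64, Mta1 over Mta3 was 1.92, 2.93, 1.84 and 2.53, and Rbbp4 over Rbbp7 was 0.835, 0.983, 0.772 and 1.04. The scaffold pair and the class I deacetylase pair showed no change of that size: Smarcc1 over Smarcc2 was between 0.416 and 0.469 and Hdac1 over Hdac2 between 0.0298 and 0.0377 in the 4 libraries.

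**Figure D3:**
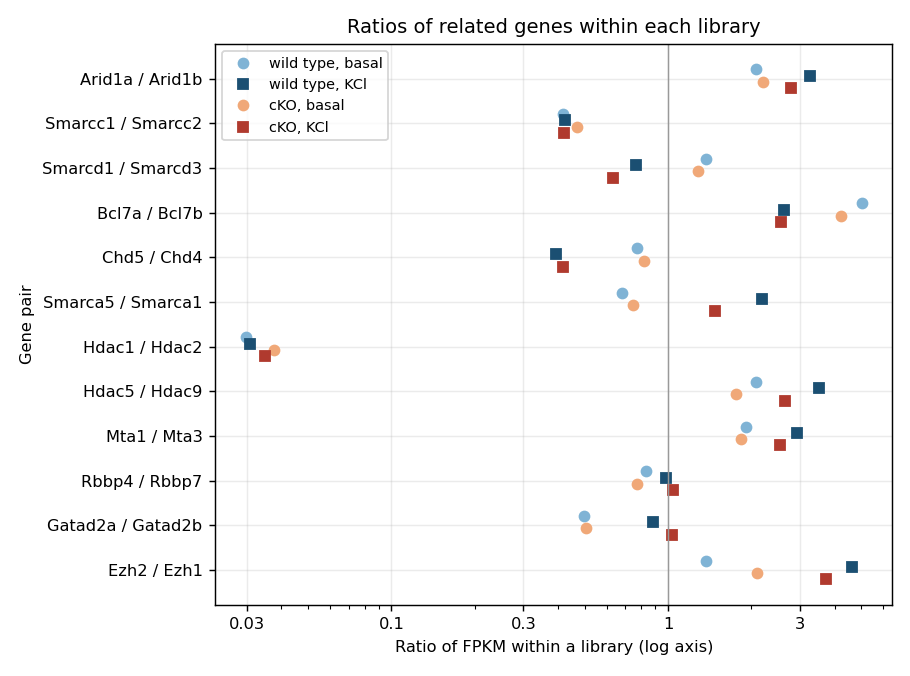
Ratio of the FPKM of the first gene to that of the second within each library (log axis) for 12 pairs of related genes, 1 point per library; the vertical line marks equal levels. The KCl squares lie right of the basal circles for Ezh2 over Ezh1 and Smarca5 over Smarca1 and left of them for Smarcd1 over Smarcd3, Bcl7a over Bcl7b and Chd5 over Chd4.

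The second question was how the members differed between genotypes in the same condition. At basal KCl, 0 of 49 members were higher and 0 lower in the cKO by 1.5-fold, beside 3.95% and 1.45% of all genes. The median log2 ratio was 0.07 for the members and 0.01 for all genes, and 39 of 49 members (79.6%) had a ratio above 0, beside 52.2% of all genes. The widest ratios above 0 were those of Eed (0.35, or 1.31-fold, interval 1.09 to 1.58), Ezh2 (0.32, or 1.27-fold, 1.13 to 1.43) and Bcl7b (0.28, or 1.23-fold, 1.02 to 1.49), and the widest below 0 was that of Ezh1 (-0.22, or 1.20-fold lower, 1.07 to 1.34). Eed and Ezh2 were higher and Ezh1 lower under all 4 rescalings, and the ratio of Ezh2 to Ezh1 was 1.52-fold higher in the cKO (1.3 to 1.78). In the same basal libraries 14 of 14 cell cycle genes had a higher value in the cKO, 9 of them by 1.5-fold, and their part in the PRC2 values was not tested.

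After KCl, 0 members were higher in the cKO (beside 5.56% of all genes) and 1 of 49 was lower (2.04%, beside 3.32%). The lower one was Chd2, at 34.0 FPKM in the wild type library against 19.4 in its cKO counterpart, or 1.76-fold lower (1.53 to 2.02). The members' median was 0.03, as was that of all genes. With the presynaptic scaling, under which all genes had a median of 0.28, the log2 ratio of Chd2 was -0.52, inside the 1.5-fold size, and Hells and Mta3 were then counted as higher. Among all genes past 1.5-fold after KCl the share that was higher was 62.6% as deposited, 49.3% with the ribosomal scaling and 86.7% with the presynaptic one, and at basal KCl it was 73.1% as deposited and 87.0% with the presynaptic scaling.

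Smaller differences after KCl ran in both directions. Hells was 1.36-fold higher in the cKO (1.18 to 1.57), Mta3 1.29-fold (1.14 to 1.47) and Hdac1 1.27-fold (1.02 to 1.58). Kdm6b was 1.23-fold lower (1.15 to 1.3). The log2 ratios of Hdac5 (-0.27), Smarca5 (-0.26) and Bcl11a (-0.25) were also below 0 as deposited but did not keep their sign under every rescaling. The X-linked members, which sex could touch, had small ratios: Smarca1 had -0.06 at basal and 0.26 after KCl, Atrx 0.14 and 0.08, and Rbbp7 0.10 and 0.00.

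**Figure D4:**
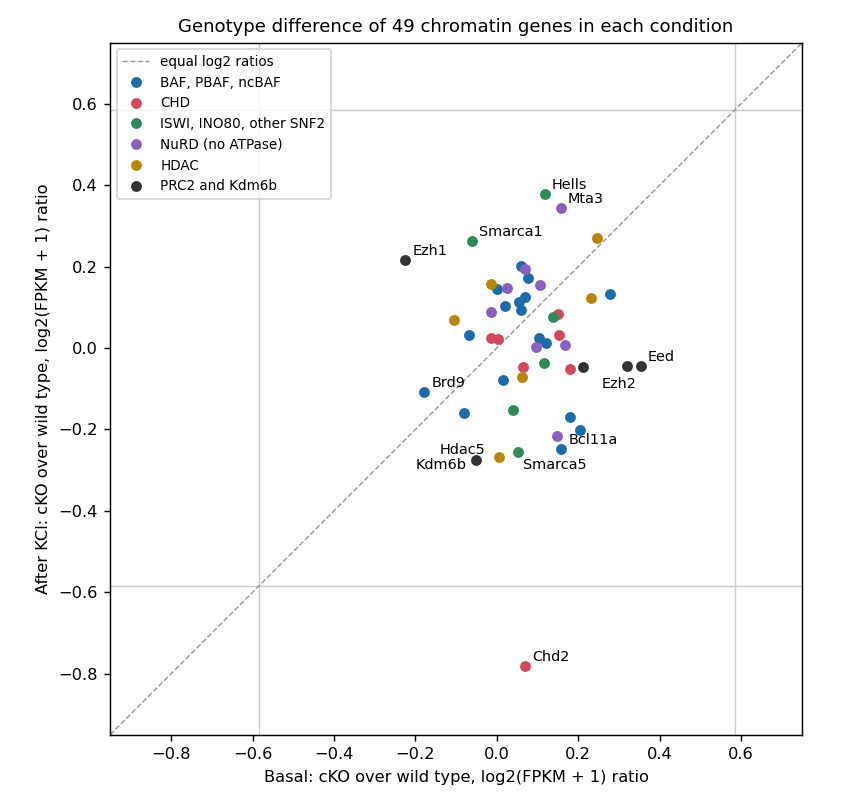
Genotype difference of each member at basal KCl (horizontal) and after KCl (vertical), as the log2(FPKM + 1) ratio of cKO over wild type, coloured by complex or family; grey lines mark 1.5-fold and the dashed line equal ratios. All members lie inside the grey lines except Chd2, at 0.07 and -0.78, while Ezh1 lies at -0.22 and 0.22.

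The third question was whether the KCl response itself differed between genotypes, as the ratio in the cKO divided by that in wild type. For 1 of 49 members (2.04%, beside 2.85% of all genes) the response was lower in the cKO by 1.5-fold, and for 0 it was higher (beside 1.97%). The member was Chd2, with a log2 difference of -0.85; without the added 1 FPKM it was -0.89 (interval -1.26 to -0.52), so that its induction in the cKO was 0.54 times that in wild type. The width of that interval depends on the transcript length taken for Chd2, 748 bases. Chd2 passed 1.5-fold under all 4 rescalings. The members' median difference was -0.08, against 0.02 for all genes.

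Some members had a counting interval of the difference clear of 0, on either side, Chd2 among those below it. The share of all genes with such an interval was not computed, so the number of such members cannot be set against other genes. The widest differences after that of Chd2 are given here. Ezh1, with KCl ratios of -0.79 (wild type) and -0.35 (cKO), had a difference of 0.52 without the added FPKM (0.27 to 0.78). Smarca1, with ratios of -0.40 and -0.08, had one of 0.35 (0.15 to 0.56). On the other side were Eed (-0.44, -0.76 to -0.11), Arid1a (-0.42, -0.49 to -0.34), Bcl11a (-0.42, -0.52 to -0.31), Ezh2 (-0.39, -0.60 to -0.18), Gatad2b (-0.38, -0.57 to -0.19), Arid2 (-0.37, -0.49 to -0.25) and Smarca5 (-0.33, -0.47 to -0.19). These intervals concern counting error between the libraries and not the spread between cultures. For Smarcd1 and Bcl7a, the members lower in both genotypes, the intervals of the difference were -0.38 to 0.20 and -0.03 to 0.16.

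**Figure D5:**
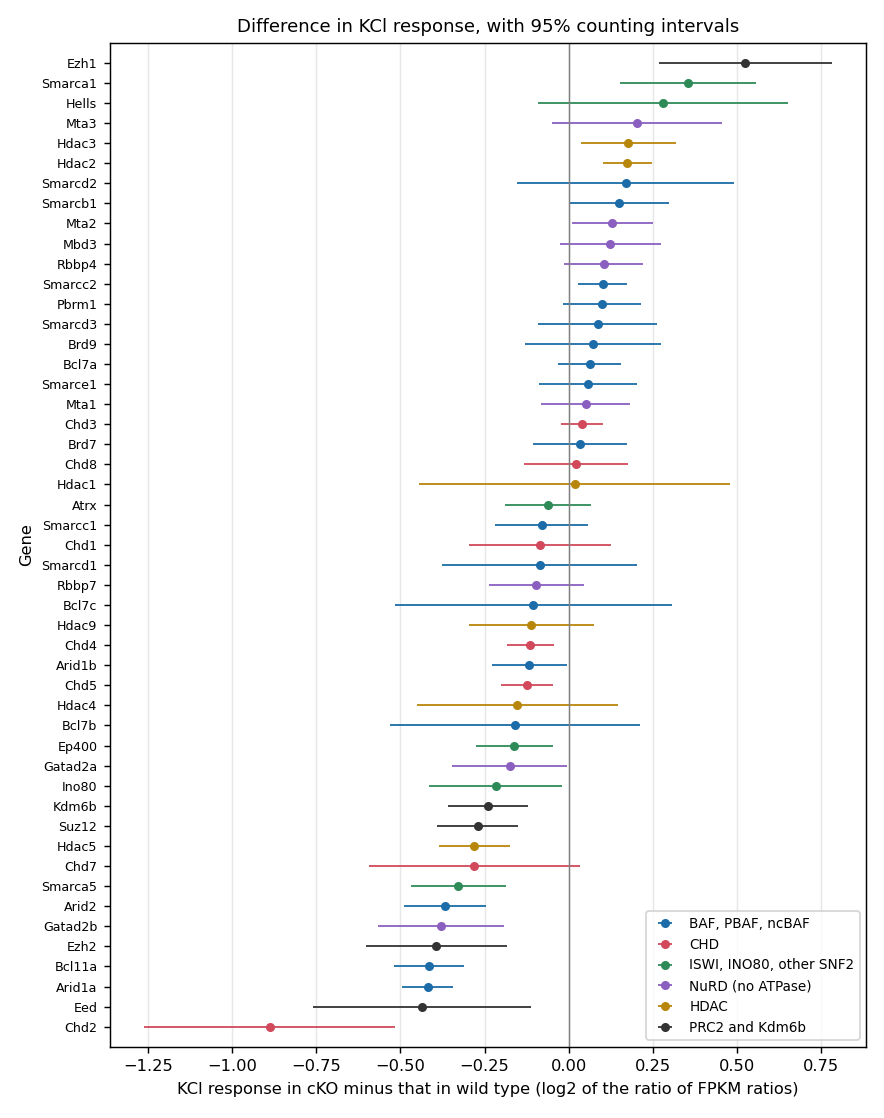
Difference in KCl response between the cKO and wild type for each of the 49 members, as the log2 of the ratio of FPKM ratios with no added FPKM, sorted by value; bars are 95% intervals from counting error only. Chd2 stands lowest at -0.89 (-1.26 to -0.52) and Ezh1 highest at 0.52 (0.27 to 0.78).

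Across the 49 genes the responses in the 2 genotypes, which share no library, were correlated with Pearson's r of 0.91 and Spearman's rho of 0.91 on the log2(FPKM + 1) scale, and 44 of 49 (89.8%) had the same sign. Over all genes retained these values were 0.85, 0.87 and 84.9%. Genes are not independent replicates, and all points of a genotype share its 2 libraries. By 1.5-fold, 6 members (12.2%) were higher in both genotypes and 2 (4.08%) lower in both, beside 8.45% and 8.64% of all genes. The difference was below 0 for 27 of 49 members (55.1%) and for 45.5% of all genes.

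Other chromatin genes, listed by name as partners of these complexes, gave a setting for the members. Of 93 listed, 91 matched and 89 reached 1 FPKM; after KCl 16 were higher and 5 lower in wild type (18.0% and 5.62%, beside 12.7% and 12.8% of all genes), and 11 and 2 in the cKO (12.4% and 2.25%, beside 11.5% and 11.1%), with median log2 ratios of 0.06 and 0.02. The widest KCl ratios belonged to Baz1a and Bcl11b. Baz1a, an ISWI partner, was at 1.29, 8.46, 1.49 and 7.14 FPKM in the order of libraries used throughout. Bcl11b, a paralog of Bcl11a, was at 10.8, 2.79, 9.86 and 2.25. Baz1a was thus higher in both genotypes, as was Smarca5, its ATPase, while Bcl11b was lower in both. The Baz1a ratio was 6.55-fold in wild type (3.88 to 11.9) and 4.80-fold in the cKO (2.91 to 8.08). It rests on about 16 and 20 basal fragments, and a link between Baz1a and Smarca5 was not tested. Kdm6a, the X-linked demethylase of the PRC2 mark, was at 9.87, 32.5, 7.67 and 16.3 FPKM, and Pcgf5, a Polycomb PRC1 subunit, at 1.35, 4.12, 1.60 and 4.86.

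Between genotypes, 1 of these 89 genes was higher and 2 lower in the cKO at basal KCl (1.12% and 2.25%, beside 3.95% and 1.45% of all genes), and 1 and 5 after KCl (1.12% and 5.62%, beside 5.56% and 3.32%). The higher one was the Y-linked Uty (0, 0.0095, 5.96 and 8.42 FPKM), and the lower ones at basal were the targeted Smarca4 and Sirt2, a deacetylase abundant in oligodendrocytes (109, 135, 52.2 and 68.0 FPKM), whose markers were also lower in the cKO; the part of those cells was not tested. The KCl response was lower in the cKO by 1.5-fold for 3 of the 89 (3.37%, beside 2.85% of all genes): Jarid2, a PRC2 partner (11.8, 17.6, 10.7 and 9.35 FPKM), Kdm6a, and Sap30, a subunit of the SIN3 corepressor (9.57, 30.8, 10.3 and 21.5). Kdm6a is X-linked, so sex could touch its values, and genotype and sex cannot be told apart. Reads of Smarce1, Smarca5 and Hdac1 could be shared with pseudogenes listed in RefSeq (Smarce1-ps1, Smarca5-ps and Hdac1-ps), so the values of these 3 members are uncertain to that extent.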

How the data were processed

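RNA-seq of 4 mouse neuron cultures was analysed from 1 table of the whole series, with 1 library per group (wild type or cKO, basal or KCl). As deposited by the authors, the values are FPKM, a unit that no label names and that was read from the values (not whole numbers, columns summing to 302041 to 330621, low values on steps that differ by gene). TopHat 1.3.2 and the mm9 build stand in the submitters' processing notes. Which program and annotation gave the gene values, and whether libraries were scaled to each other, is not given in the sources used here.

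A gene was kept if any library reached 1 FPKM, and ratios were taken on log2(FPKM + 1), which understates changes of low genes, with 1.5-fold and 2-fold sizes and no test. Counting intervals (95%, exact binomial; normal on the log scale for differences of ratios and for ratios of pairs) used depth approximated from FPKM steps of transcripts over 2000 bases with GENCODE M21 lengths. The length taken for a gene was the median over its protein-coding transcripts, short ones included. It was 748 bases for Chd2 and 712 for Smarcd1. Fragment numbers and interval widths depend on that choice, and no other length was tried. PCR reads without molecular identifiers are not independent molecules, so intervals cover counting error only. The scripts were tested on simulated data. Symbols were matched exactly as spelled.

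The members and lists were chosen with earlier results of these data known. Values in every library were given for the targeted gene, the members past 1.5-fold, the extremes of each group and each set of paralogs, and for the other chromatin genes the 3 widest ratios of each comparison. A total of 7 alternatives were tried: an added 0.1 FPKM, no filter, a filter of 5 FPKM, and 4 rescalings (median of ratios, upper quartile, ribosomal genes, presynaptic genes). Python 3.11.15, NumPy 2.4.6, pandas 2.3.3, SciPy 1.17.1 and matplotlib 3.10.9 were used.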

Additional observations from a re-analysis of the deposited data

Results flagged for a closer look

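Ezh1 differed between genotypes in opposite directions in the 2 conditions: its log2(FPKM + 1) ratio of cKO over wild type was -0.22 at basal KCl and 0.22 after KCl, a difference of 0.44. The counting interval of each ratio lay clear of equal levels, and each sign was kept under the 4 rescalings. With 1 library per group the difference was not tested.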

How the results depend on the processing

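No paired analysis was possible because each group holds 1 library, and for the same reason no replicate could be left out. The added 0.1 FPKM, no filter, the filter of 5 FPKM, the median of ratios and the upper quartile left the members' counts within 1.5 times and their medians within 0.1 (log2) of the values reported. The ribosomal and presynaptic scalings moved several. In wild type the count of members past 1.5-fold after KCl was 11 as reported and 19 with the presynaptic scaling, and the median was 0.19 as reported, -0.15 with the ribosomal scaling and 0.43 with the presynaptic one. In the cKO the count was 9 as reported and 18 with the presynaptic scaling, and the median was 0.06 as reported, -0.35 and 0.37. Between genotypes the presynaptic scaling moved the median at basal KCl from 0.07 to 0.27, that after KCl from 0.03 to 0.30, and the count after KCl from 1 to 2. Of 22 single results past 1.5-fold, 15 remained past it with the ribosomal scaling, where Hells and Ezh2 in wild type and Chd1, Chd2, Smarca5, Gatad2a and Suz12 in the cKO did not, and 18 with the presynaptic one, where Ezh1 in wild type, Bcl7a and Chd5 in the cKO, and Chd2 between genotypes after KCl did not; all 22 remained under the other alternatives. The cause of these shifts was not tested.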
